A study of Mus musculus with 6 samples.

Results

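MHC class I antigen presentation was examined through 10 genes of the 22032 in the deposited mouse matrix. They were chosen by name, as the rows whose Ensembl identifier carries one of the listed gene symbols. The 10 genes are the heavy chains H2-K1, H2-D1 and H2-T23, the light chain B2m, the peptide transporter subunits Tap1 and Tap2, the bridging chaperone Tapbp, the inducible proteasome subunits Psmb8 and Psmb9, and the transcriptional activator Nlrc5. All 10 were found in the matrix. The samples were 3 embryonic and 3 adult libraries of mouse cartilage chondrocytes profiled by RNA-seq, and the question was how chondrocytes differ between prenatal and adult life. Both groups were sorted as cells negative for CD31, CD45, Ter119 and alkaline phosphatase and positive for BMPR1B, a bone morphogenetic protein receptor found on articular chondrocytes. The embryonic group was taken at E16.5 in the study's text, while its labels write 16.5 wks, and the adult animals were 2 months old. The methods give the adult animals as male B6 mice, a laboratory strain. The strain and sex of the embryos and the number of animals per sample are not given in the sources used here, and no transgene or treatment is named for either group. H2-K1 and H2-D1 differ in sequence between mouse strains. If the embryos were of another strain, a difference of strain and a difference of stage cannot be told apart, for these genes or any other. The submitters call the samples biological replicates, and where samples share an animal the p-values measure only the spread between these samples.

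The class I pathway shows peptides from inside a cell to CD8 T cells and natural killer cells. The proteasome cuts proteins into peptides, and under interferon its catalytic subunits can be exchanged for the inducible ones encoded by Psmb8, Psmb9 and Psmb10. TAP1 and TAP2 form the transporter that carries peptides into the endoplasmic reticulum, where tapasin (the product of Tapbp), calreticulin and ERp57 hold an empty class I molecule until it binds a peptide. H2-K1 and H2-D1 encode the classical heavy chains of the mouse, each of which pairs with beta 2 microglobulin, the product of B2m. H2-T23 encodes Qa-1, a nonclassical class I molecule read by receptors of natural killer cells. NLRC5 is known as the activator that works at class I promoters, as CIITA does for class II genes. Cartilage holds no vessels and its matrix is known to shield chondrocytes from immune cells.

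On the GRCm38 build, with the GENCODE M21 annotation, 8 of the 10 genes lay within 2117 kb of chromosome 17, from Tapbp at one end to H2-T23 at the other. H2-K1 (chr17:33996017-34000347, minus strand) stood near one end of this stretch and H2-D1 (chr17:35262730-35267499, plus strand) farther along it. Psmb9 (chr17:34181987-34187764), Tap1 (chr17:34187553-34197225), Psmb8 (chr17:34197721-34201454) and Tap2 (chr17:34203527-34216321) followed one another. Psmb9 is read from the minus strand and the other 3 from the plus strand, and the annotated 5′ ends of Psmb9 and Tap1 overlap by 212 bases. Tapbp (chr17:33915899-33929292) and H2-T23 (chr17:36029773-36032855, minus strand) bounded the stretch. B2m (chr2:122147686-122153083) and Nlrc5 (chr8:94434356-94527272) lay elsewhere in the genome.

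The promoters of the classical heavy chains and of B2m are shown because these chains make up the class I molecule and all of them were called higher in the adult samples. Tap1 is shown as a called gene with fewer of the motifs. H2-Q4, a nonclassical heavy chain outside the 10 genes, is shown as one that held a match to every motif and went the other way. Its TGACG match stood at another place among the motifs than in H2-K1 and H2-D1. Each run is the 250 bases before the transcript start, read 5′ to 3′ on the gene's strand, from RefSeq on GRCm38.p6. Capitals mark matches on either strand to the NF-kappa B consensus, to GAANNGAAA or GAAANNGAA (forms of the interferon response element), to TGACG (the core of the cyclic AMP response element, known in class I promoters as part of the X2 box) and to CCAAT (the Y box), of which some may overlap.
H2-K1 promoter, chr17:34000348-34000597, minus strand: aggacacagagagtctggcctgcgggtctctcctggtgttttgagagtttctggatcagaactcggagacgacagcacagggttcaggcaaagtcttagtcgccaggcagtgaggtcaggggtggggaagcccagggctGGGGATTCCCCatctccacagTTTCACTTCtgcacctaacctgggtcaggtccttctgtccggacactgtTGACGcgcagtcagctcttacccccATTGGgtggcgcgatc
H2-D1 promoter, chr17:35262844-35263093, plus strand: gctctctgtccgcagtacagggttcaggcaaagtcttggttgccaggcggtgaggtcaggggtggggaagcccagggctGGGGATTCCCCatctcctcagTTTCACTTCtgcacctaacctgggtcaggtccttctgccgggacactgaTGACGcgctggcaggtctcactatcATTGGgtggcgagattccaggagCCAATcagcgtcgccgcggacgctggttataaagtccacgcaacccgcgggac
B2m promoter, chr2:122147437-122147686, plus strand: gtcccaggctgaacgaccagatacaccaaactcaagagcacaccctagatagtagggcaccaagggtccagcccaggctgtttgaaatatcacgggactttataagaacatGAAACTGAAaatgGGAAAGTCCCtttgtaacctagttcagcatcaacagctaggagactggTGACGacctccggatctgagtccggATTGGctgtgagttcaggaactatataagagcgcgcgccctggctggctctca
Tap1 promoter, chr17:34187306-34187555, plus strand: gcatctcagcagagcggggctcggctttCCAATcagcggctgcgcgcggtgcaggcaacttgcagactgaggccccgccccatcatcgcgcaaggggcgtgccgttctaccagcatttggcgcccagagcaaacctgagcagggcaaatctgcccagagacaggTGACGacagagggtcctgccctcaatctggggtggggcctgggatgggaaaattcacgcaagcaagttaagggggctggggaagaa
H2-Q4 promoter, chr17:35379367-35379616, plus strand: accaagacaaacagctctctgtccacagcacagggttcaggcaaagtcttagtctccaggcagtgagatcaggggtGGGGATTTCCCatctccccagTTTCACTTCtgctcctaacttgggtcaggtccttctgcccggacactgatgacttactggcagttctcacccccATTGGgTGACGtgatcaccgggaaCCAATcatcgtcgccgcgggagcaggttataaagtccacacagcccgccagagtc

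Of the 10 genes, 8 had a promoter entry, and Tap2 and Nlrc5 had none. H2-K1, H2-D1 and B2m each held all 4 kinds of motif. In H2-K1 and H2-D1 these stood in the same order, from the NF-kappa B match through the interferon response element and TGACG to a CCAAT box read from the other strand. Over the 190 bases that aligned between them, both windows had the same base at 167 positions (87.9%). In H2-Q4 the order differed. Counted from the transcript start, its TGACG (-73 to -69) came after the CCAAT box read from the other strand (-79 to -75). Tap1 and Psmb9 are read away from each other from neighbouring starts, and 225 bases belong to both windows. Each held TGACG and CCAAT but neither the NF-kappa B consensus nor an interferon element of the forms searched. H2-T23 held GAAANNGAA and CCAAT, Tapbp held CCAAT alone, and Psmb8 held none of them. Among all 32851 RefSeq promoter windows of the same length, the NF-kappa B consensus was found in 7.25%, GAANNGAAA in 6.31%, GAAANNGAA in 7.13%, TGACG in 17.8% and CCAAT in 33.8%. All 4 kinds together were found in 18 windows (0.0548%), which belong to 17 genes. Of these 17 genes, 8 bear a class I name, namely H2-K1, H2-D1, B2m, H2-Q4, H2-Q7, H2-T22, H2-M3 and H2-M2. The motifs were chosen after the member sequences had been read, so these shares describe the windows and test nothing.

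Of the 10 members, 7 rose in the adult chondrocytes and none fell. H2-K1 was 14.6 times and H2-D1 9.51 times as abundant in the adult as in the embryonic samples by mean TPM, and H2-T23, Tapbp, Tap1, Tap2 and B2m followed with ratios from 5.14 down to 2.09. The inducible subunit Psmb8 and the activator Nlrc5 did not pass the test, and Psmb9 was listed at 0 in all 3 adult samples. Levels are in TPM (transcripts per 1000000), a measure scaled by transcript length and by the total of each sample, so that levels of different genes can be set side by side. The comparison was fitted with limma on log2(TPM + 1) for the 13125 genes averaging 1 TPM or more, and a gene was called at a Benjamini-Hochberg adjusted p under 0.05 over all of them. Of the members 9 passed this filter, and Psmb8 did so mainly through its adult values. Of all tested genes 5949 (45.3%) were called, 3140 (23.9%) as higher and 2809 (21.4%) as lower in the adult. At an unadjusted p under 0.05 the members gave the same counts of 7 and 0, but the share of all tested genes at that threshold was not counted. The 7 called members were also those whose 3 adult values all lay above the 3 embryonic ones, as 4023 tested genes (30.7%) did. The median log2 fold change, adult minus embryonic, was 1.42 over the 9 tested members and 0.16 over all tested genes, whose quartiles were -0.63 and 0.89. In bulk samples a smaller share of cells that express a gene and less RNA of it per cell cannot be told apart.

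**Figure D1:**
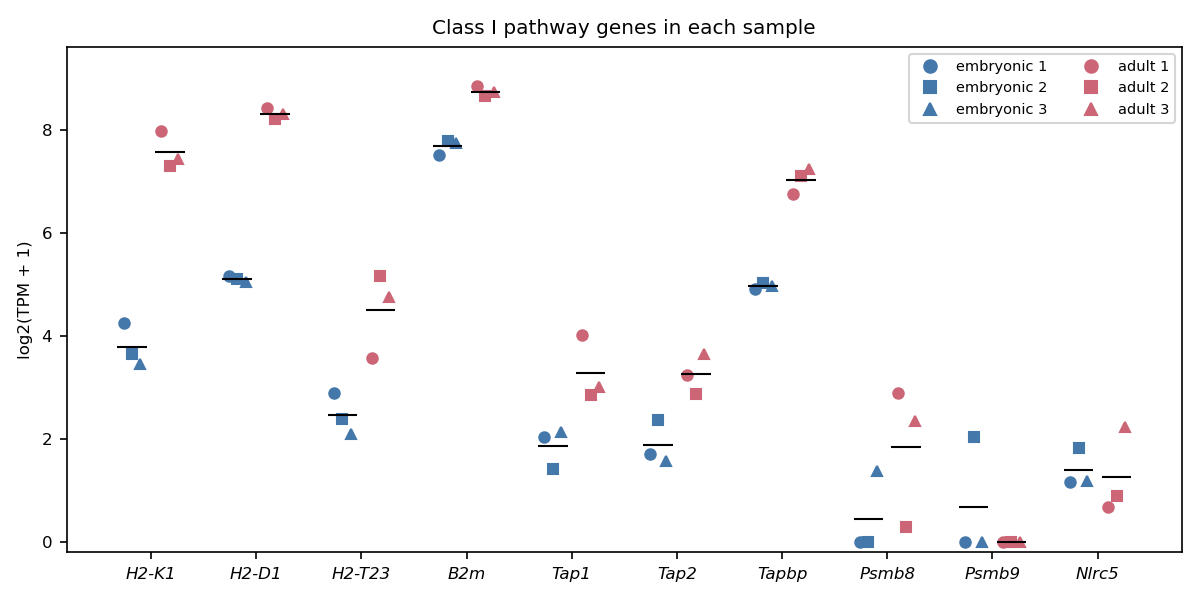
Level of each of the 10 genes as log2(TPM + 1) in the 3 embryonic (blue) and 3 adult (red) samples, one marker shape per replicate, with a bar at the mean of each group. The adult samples of H2-K1, H2-D1, H2-T23, B2m, Tap1, Tap2 and Tapbp lie above every embryonic sample, while those of Psmb8, Psmb9 and Nlrc5 do not.

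The classical heavy chains showed the largest differences among the members. H2-K1 was measured at 18.0, 11.6 and 9.89 TPM in the embryonic libraries against 250.2, 155 and 170 TPM in the adult ones. No adult value came near the embryonic range, and adult replicate 1 was the highest. The log2 fold change was 3.78 ± 0.26 (SE, n = 3 and 3, limma adjusted p = 1.39e-05), a size reached by 0.899% of the tested genes. H2-D1 stood at 34.7, 33.2 and 31.97 TPM in the embryonic libraries against 342, 294 and 313 TPM in the adult ones. The replicates of H2-D1 were close to each other in both groups, with SDs of 1.34 and 23.6 TPM. Its log2 fold change was 3.21 ± 0.13 (SE, n = 3 and 3, limma adjusted p = 8.46e-07), which 1.39% of tested genes matched or passed. In the embryonic samples H2-D1 was more abundant than H2-K1 in every library, and the order was the same in the adult.

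H2-T23, the nonclassical Qa-1 heavy chain, was less abundant and less even. Its embryonic levels were 6.45, 4.20 and 3.28 TPM and its adult levels 10.8, 34.9 and 25.9 TPM. The groups did not overlap, although adult replicate 1 lay much nearer to the embryonic samples than the other adult samples did. The log2 fold change was 2.04 ± 0.46 (SE, n = 3 and 3, limma adjusted p = 0.00686). With no filter on low values its adjusted p was 0.0545.

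B2m, the light chain shared by all class I molecules, was the most abundant member at both stages. It stood at 182, 219 and 212 TPM in the embryonic libraries against 457, 399 and 421 TPM in the adult ones. The adult values were all higher, by a log2 fold change of 1.06 ± 0.12 (SE, n = 3 and 3, limma adjusted p = 2.43e-04), the smallest among the called members. A difference at least this large was found in 20.6% of the tested genes.

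The classical heavy chains H2-K1 and H2-D1 and the light chain therefore stood in different proportions at the 2 stages. The summed TPM of H2-K1 and H2-D1 divided by that of B2m was 0.290, 0.204 and 0.198 in embryonic replicates against 1.29, 1.13 and 1.15 in adult ones. In TPM, B2m exceeded these classical heavy chains severalfold in the embryonic samples. In the adult samples H2-K1 and H2-D1 together slightly outnumbered B2m. The ratio leaves out H2-T23 and the other heavy chains. The 17 further class I and class I like genes summed to 172.8, 175.5 and 177.3 TPM in the embryonic libraries. Their sum was 278.9, 192 and 193.6 TPM in the adult ones. The severalfold excess of B2m therefore holds for H2-K1 and H2-D1 alone. The ratio was 5.23 times as high in the adult (a difference of 2.39 on the log2 scale, exact two-sided permutation p = 0.1, the smallest that 3 samples against 3 can give).

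The peptide loading members also rose, Tapbp more evenly than the transporter genes. Tapbp, which encodes tapasin, was at 29.1, 31.4 and 30.2 TPM in the embryonic libraries against 107, 135 and 150 TPM in the adult ones. All adult values were more than 3 times as high as any embryonic value. Its log2 fold change was 2.07 ± 0.17 (SE, n = 3 and 3, limma adjusted p = 3.46e-05). Tap1 was measured at 3.09, 1.68 and 3.402 TPM in the embryonic libraries against 15.1, 6.23 and 7.0 TPM in the adult ones. Tap2 had 2.27, 4.17 and 1.96 TPM in the embryonic libraries against 8.41, 6.32 and 11.51 TPM in the adult ones. Both transporter subunits were low at both stages, and neither overlapped between the groups. The log2 fold changes were 1.42 ± 0.45 for Tap1 (SE, n = 3 and 3, limma adjusted p = 0.0309) and 1.37 ± 0.42 for Tap2 (SE, n = 3 and 3, limma adjusted p = 0.026). Both calls were lost with no filter on low values (adjusted p of 0.111 and 0.0827) and when single samples were left out. For Tap1 these were each of the 3 embryonic samples and adult replicate 1, with adjusted p values from 0.0556 to 0.1. For Tap2 they were embryonic replicates 1 and 3 and adult replicates 1 and 3, with adjusted p values from 0.0564 to 0.0826.

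**Figure D2:**
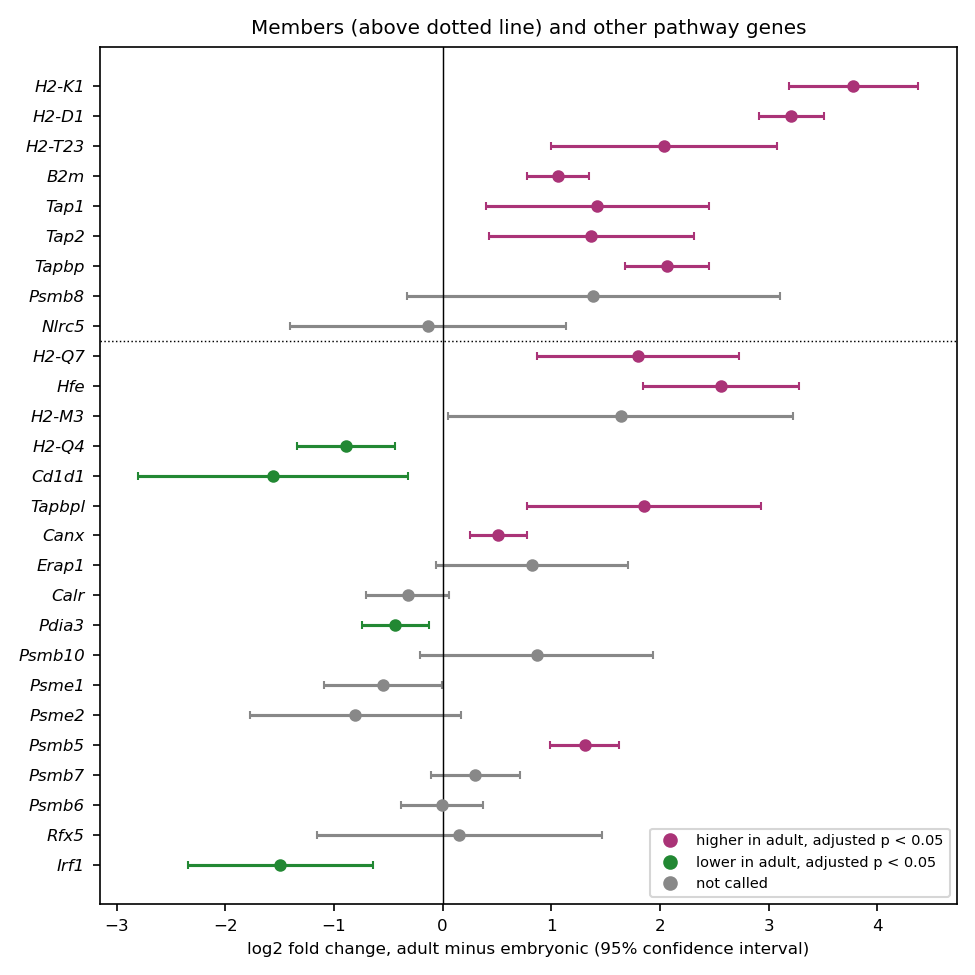
Log2 fold change, adult minus embryonic, with its 95% confidence interval from limma, for the 9 tested members (above the dotted line) and for other named pathway and regulator genes (below it), coloured by the call at an adjusted p under 0.05. H2-K1 and H2-D1 stand farthest to the right, and the intervals of Psmb8 and Nlrc5 cross 0.

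The inducible proteasome genes were near the bottom of the measured range and gave no call. Psmb8 read 0, 0 and 1.59 TPM in the embryonic libraries against 6.43, 0.224 and 4.07 TPM in the adult ones. The groups overlapped, since adult replicate 2 was lower than embryonic replicate 3. The log2 fold change was 1.39 with a 95% interval from -0.33 to 3.10 (limma adjusted p = 0.165). Without adult replicate 2 it was 2.16 and passed the test (adjusted p = 0.03), and without adult replicates 1 and 3 it turned to -0.17. Psmb9 had 3.08 TPM in embryonic replicate 2 and was listed at 0 in the other 5 samples, so it was not tested and no fold change is given. Psmb10, the remaining inducible subunit, had 3.596, 2.67 and 1.33 TPM in the embryonic libraries against 6.93, 6.48 and 3.00 TPM in the adult ones. Its groups overlapped (log2 fold change 0.86, limma adjusted p = 0.166).

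Each inducible subunit replaces 1 constitutive subunit, Psmb8 that of Psmb5, Psmb9 that of Psmb6 and Psmb10 that of Psmb7. As a share of its counterpart, Psmb8 came to 0%, 0% and 2.86% in embryonic libraries against 4.61%, 0.185% and 3.15% in adult ones. Psmb9 came to 1.43% of Psmb6 in 1 embryonic sample and to 0% elsewhere. Psmb10 came to 3.69%, 2.87% and 1.16% of Psmb7 in embryonic libraries against 4.38%, 6.23% and 2.52% in adult ones. The highest of these shares was 6.23%. The Psmb10 ratio differed by 0.83 on the log2 scale with overlapping groups (exact two-sided permutation p = 0.3, the single testable ratio of the 3, since zeros leave the others without a log ratio). Of the 14 genes of the constitutive core, all tested, 6 rose and none fell, against 23.9% and 21.4% of all tested genes. Those that rose included Psmb5 (log2 fold change 1.31, limma adjusted p = 1.42e-04), Psmb3 (1.29, limma adjusted p = 5.03e-04) and Psma7 (1.19, limma adjusted p = 7.79e-04). Psmb6 (-0.00, limma adjusted p = 0.993) and Psmb7 (0.30, limma adjusted p = 0.203) did not pass. Psmb5, at 48.5, 51.7 and 55.5 TPM in the embryonic libraries against 139, 121 and 129 TPM in the adult ones, was the constitutive catalytic subunit that rose.

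**Figure D3:**
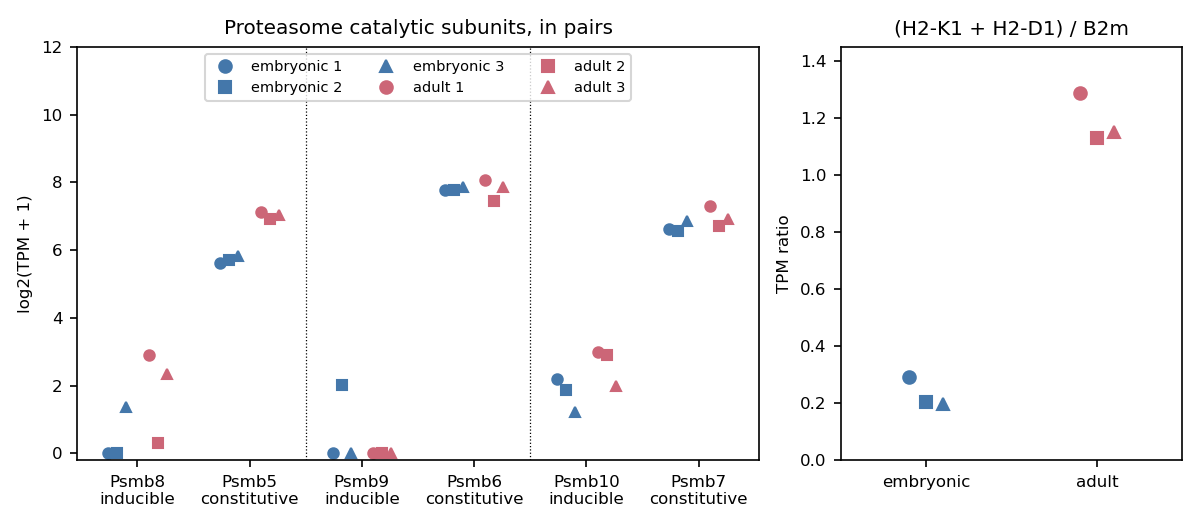
Left, log2(TPM + 1) of each inducible proteasome subunit beside the constitutive subunit it replaces, and right, the TPM ratio of H2-K1 plus H2-D1 to B2m, each marker being 1 of 3 embryonic (blue) or 3 adult (red) samples. The inducible subunits stay far below their counterparts at both stages, while the ratio lies at 0.290 or less in the embryonic and at 1.13 or more in the adult samples.

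Nlrc5, the class I activator, was low and did not pass the test. It stood at 1.25, 2.56 and 1.27 TPM in the embryonic libraries against 0.594, 0.847 and 3.69 TPM in the adult ones. Adult replicate 3 was the highest of the 6 and the other adult samples were the lowest. The log2 fold change was -0.13 with a 95% interval from -1.40 to 1.13 (limma adjusted p = 0.861), so a difference of about 1 in either direction could not be seen with these samples. Its sign turned when embryonic replicate 2, adult replicate 1 or adult replicate 2 was left out (0.09, 0.16 and 0.06).

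By level, the members kept a similar order at both stages, on the TPM scale. In the embryonic samples B2m was followed by H2-D1, Tapbp and H2-K1, each range lying apart from the next. From H2-T23 downward through Tap2, Tap1, Nlrc5, Psmb9 and Psmb8, each range overlapped with the next. In the adult samples H2-K1 stood above Tapbp, the order otherwise starting B2m, H2-D1, and these 4 ranges again lay apart. From H2-T23 through Tap1, Tap2, Psmb8 and Nlrc5 neighbouring ranges overlapped.

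The other class I pathway genes moved in both directions. Of 17 further class I and class I like heavy chain genes, 11 were tested, 2 rose and 2 fell. H2-Q5, which the list did not hold and which was singled out after its value was seen, had a log2 fold change of 2.87 (limma adjusted p = 0.0079), above that of every tested gene of the list. H2-Q7, which encodes a Qa-2 molecule, rose from 7.50, 3.69 and 8.94 TPM to 31.1, 15.1 and 31.2 TPM (log2 fold change 1.80, limma adjusted p = 0.00721). Hfe, a class I like protein that regulates iron uptake, rose by 2.56 (limma adjusted p = 3.15e-04). H2-Q4 fell from 57.1, 57.2 and 49.4 TPM to 31.1, 23.2 and 33.7 TPM (log2 fold change -0.89, limma adjusted p = 0.00688). In the embryonic samples it was therefore more abundant than H2-K1 and H2-D1, and in the adult samples less abundant than both. Cd1d1, which presents lipids, fell by 1.56 on the log2 scale (limma adjusted p = 0.0439). H2-M3, which presents formylated peptides, had 0, 0 and 1.24 TPM against 6.45, 4.95 and 0.528 TPM and did not pass (limma adjusted p = 0.0852).

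Among 10 other loading and trimming genes, all tested, 2 rose and 3 fell. Canx, the chaperone calnexin of new heavy chains, rose by 0.51 (limma adjusted p = 0.00665), and Tapbpl, a tapasin-related peptide editor, by 1.86 (limma adjusted p = 0.0123). Pdia3, which encodes ERp57, fell by 0.43 (limma adjusted p = 0.0282), and the translocon genes Sec61a1 and Sec61b fell by 0.85 (limma adjusted p = 6.86e-04) and 1.11 (limma adjusted p = 0.0168). Calr (-0.32, limma adjusted p = 0.147) and the trimming peptidase Erap1 (0.82, limma adjusted p = 0.115) did not pass. Of the 3 activator subunits and Psmb10 none passed, with -0.55 for Psme1 (limma adjusted p = 0.0913) and -0.80 for Psme2 (limma adjusted p = 0.156). At an unadjusted p under 0.05, for which no share over all tested genes was counted, these 4 genes gave 1 lower and 0 higher. Over the 39 tested genes of the 4 lists, 10 rose, a share close to the 23.9% of all tested genes, and 5 fell, against 21.4%. Their median log2 fold change was 0.38 against 0.16 for all tested genes. The number of these 39 genes that fell was 3 without embryonic replicate 1 or 2 or adult replicate 3, and 2 without embryonic replicate 3.

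Of 20 tested genes known to act upstream of class I transcription 6 rose and 3 fell, a share close to the 45.3% called over all tested genes. Creb1 (0.84, limma adjusted p = 0.0109), the interferon receptor chain Ifnar1 (0.82, limma adjusted p = 0.0111) and the NF-kappa B subunit Relb (0.86, limma adjusted p = 0.0119) rose. Irf1, an interferon-inducible activator of class I genes, fell from 20.3, 10.6 and 21.9 TPM to 6.19, 6.03 and 3.98 TPM (log2 fold change -1.49, limma adjusted p = 0.0113). The kinase Jak1 (-0.49, limma adjusted p = 0.0281) and Rfxap, part of the factor that binds the X1 box (-0.65, limma adjusted p = 0.0363), fell as well. Its partner Rfx5 did not pass (0.15, limma adjusted p = 0.843).

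The 4 interferon genes examined, Ifng among them, were listed at 0 in all 6 samples. Of 20 interferon-stimulated genes 13 were tested, 5 rose and none fell, against 23.9% and 21.4% of all tested genes. Of the 20, 6 had all adult values above the embryonic ones, a share close to the 30.7% of all tested genes. Another 2 had them all below, for which no share over all genes was counted. Those 2, Mx2 and Gbp7, were too low to be tested. Mx2 had 0.665, 2.90 and 1.23 TPM in the embryonic libraries and was at 0 in the adult ones. Xaf1 rose by 1.69 (limma adjusted p = 0.00208), Ifit2 by 2.28 (limma adjusted p = 0.00461) and Gbp2 by 1.98 (limma adjusted p = 0.0125). Over the regulator, interferon and class II genes together, 11 were called higher and 3 lower. The lower count was 0 or 1 when embryonic replicate 1 or 3, or adult replicate 1 or 2, was left out, and the higher count was 6 without embryonic replicate 3 and 7 without adult replicate 3. Of 9 class II genes 4 were tested and none was called. At an unadjusted p under 0.05, 2 were higher and 0 lower, H2-Ab1 and Cd74 being the 2. The share of all tested genes at that threshold was not counted, and Cd74 passed the filter through its adult values. Cd74, the class II invariant chain, was at 0.325, 0 and 0.496 TPM in the embryonic libraries against 3.11, 0.841 and 6.58 TPM in the adult ones (limma adjusted p = 0.0553). Ciita, its activator, had 0.0956, 0.694 and 0 TPM in the adult samples and was at 0 before birth.

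Immune cells carry large amounts of class I transcripts, so their markers are given beside the members, although the sort gated out CD45-positive cells. All 8 chondrocyte markers were detected in every sample, but 5 fell and 2 rose in the adult. Matn3, a cartilage matrix protein, fell by 6.05 (limma adjusted p = 2.34e-06) and the collagen gene Col9a1 by 5.48 (limma adjusted p = 1.56e-06) on the log2 scale, while Comp, another matrix gene, rose by 1.89 (limma adjusted p = 3.78e-05) and Sox9, the chondrocyte transcription factor, by 0.69 (limma adjusted p = 0.01). Col2a1, the main cartilage collagen, lay between 14150 and 15250 TPM in the embryonic and between 3166 and 7084 TPM in the adult samples. Summed over 14 leukocyte markers, the level was 11.4 to 14.9 TPM in the embryonic samples and 146, 21.6 and 103 TPM in adult replicates 1, 2 and 3. Of these 14 genes 9 were tested, 3 rose (Cd68, Itgam and S100a8) and none fell, against 23.9% and 21.4% of all tested genes. Cd52, S100a8, Laptm5, Coro1a, Lyz2 and Itgam averaged under 1 TPM in the embryonic samples. They passed the filter through their adult values, so it left them little room to fall. S100a8, made by neutrophils, had values of 36.4 and 41.5 TPM in adult replicates 1 and 3 and was at 0 in every other sample. Adult replicate 2 had 9 of the 14 markers at 0, including the defining Ptprc, which encodes CD45, together with Cd52, Tyrobp and Cd3e. Ptprc was at 2.29 and 1.03 TPM in the other adult samples, and Cd3e was at 0 everywhere. In adult replicate 2 Cd68 was at 17.2 TPM, above the embryonic range of 4.22 to 12.6 TPM. Laptm5 (1.21 TPM) and Itgam (1.375 TPM) also lay above their embryonic ranges there, while Lyz2 and Csf1r did not. The class II gene H2-Ab1 was at 10.5 TPM there, against 5.28 and 9.31 TPM in adult replicates 1 and 3. The 9 class II genes summed to 8.93 to 17.5 TPM in the embryonic samples. They summed to 23.9 and 36.9 TPM in those adult replicates and to 21.6 TPM in adult replicate 2. In that replicate H2-K1 was at 155, H2-D1 at 294, B2m at 399, Tapbp at 135 and H2-T23 at 34.9 TPM. Adult replicate 2 was also taken as the only adult sample, a choice made after the data were seen. The log2 fold changes were then 3.51 for H2-K1, 3.11 for H2-D1 and 2.71 for H2-T23. Those of Tapbp and B2m were 2.13 and 0.97, and those of Tap1 and Tap2 were both 0.99. With 1 adult sample the spread between adult samples is not known, so no p-value is given. The part of leukocyte RNA in the values of the members was not tested. Summed endothelial markers spanned 12.8 to 39.0 TPM in the embryonic and 7.29 to 19.4 TPM in the adult samples, and summed erythroid markers 0.311 to 133 TPM and 3.13 to 33.8 TPM.

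**Figure D4:**
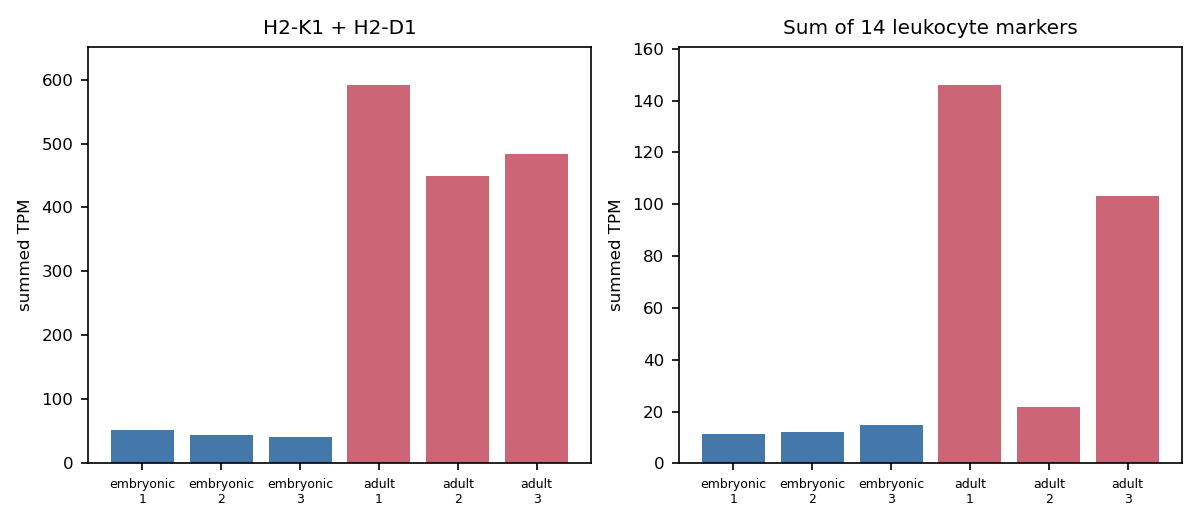
Summed TPM of H2-K1 and H2-D1 (left) and of 14 leukocyte markers (right), one bar per sample, embryonic in blue and adult in red, on separate axes that start at 0. The leukocyte sum is 146 and 103 TPM in adult replicates 1 and 3 and 21.6 TPM in adult replicate 2. The heavy chain sum is far above the embryonic values in all 3 adult samples, and the part of leukocyte RNA in it was not tested.

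Most of the members are neighbours on chromosome 17, so the genes around them were counted. The stretch from Tapbp to H2-T23 held 129 genes of the matrix, of which 92 were tested. Apart from the members, 85 genes were tested there, 28 (32.9%) rose and 11 fell, against 23.9% and 21.4% of all tested genes. Their median log2 fold change was 0.51. H2-K1 exceeded all 85 of these neighbours, and H2-D1 all but Cfb. Cfb, which encodes complement factor B and was singled out after its value was seen, had a log2 fold change of 3.34 (limma adjusted p = 2.29e-04).

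**Figure D5:**
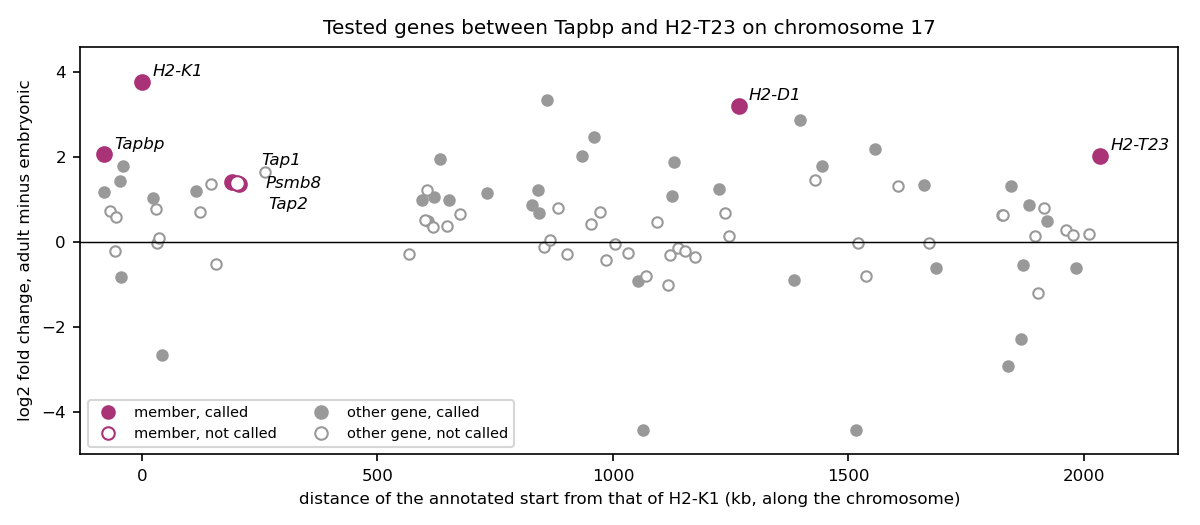
Log2 fold change, adult minus embryonic, of the 92 tested genes between Tapbp and H2-T23, against the distance of each gene's annotated start from that of H2-K1 in kb. Members are named, filled points were called, and open points were not, with called neighbours on both sides of 0 along the stretch.

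The reads were 50 bases long, so the sequence that members share with other genes bears on how far their levels can be kept apart. Of all 50 base words in the GENCODE M21 transcripts of H2-K1, 9.63% also occur in transcripts of another gene on either strand, most often H2-Q10, and of those of H2-D1 12.8%. H2-K1 shared 4.08% of its words with H2-D1. The share was 14.5% for H2-T23, 11.9% for Psmb8, 11.6% for Tap2 and 23.2% for Tapbp, and 0% for B2m, 0.338% for Nlrc5, 3.33% for Tap1 and 4.19% for Psmb9. Thus 5 of the 10 members had more than 10% of their words in common with another gene, and with words of 35 bases H2-K1 joined them at 18.5%. For Tapbp most of the shared words (20.3% of all its words) belong to Gm19412, an antisense transcript that is not a row of the matrix, and for Psmb8 most (11.6%) belong to the antisense Gm20496, likewise not a row. The library method as described does not mark the strand, so reads from a gene and its antisense partner cannot be told apart. H2-Q4 shared 36.4% and H2-Q7 26.5% of their words, so that their levels are less certain than those of H2-K1 and H2-D1. The RSEM program divides reads with several possible origins by estimation, and alleles of another strain would alter which reads match the reference.

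Across the 6 samples, the genes outside the lists with the pattern most like the mean of the tested members, each scaled to unit spread, were Zfp879, Dbt, Arl6ip5, Serpina1c and Mlkl, with Pearson r from 0.9978 to 0.9987 over 6 samples. Of the 12993 genes compared, 802 (6.17%) had an r above 0.95. Dbt, a subunit of the branched-chain keto acid dehydrogenase, went from 8.01, 9.17 and 8.26 TPM to 30.6, 25.1 and 43.8 TPM. Mlkl, the effector of necroptosis, went from 0.408, 0.972 and 0.828 TPM to 12.9, 8.66 and 23.1 TPM. The correlation describes the samples only, which share the split by stage.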

How the data were processed

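RNA-seq values of 6 mouse samples were used, 3 embryonic and 3 adult, grouped by their titles. The authors mapped reads to GRCm38, estimated levels with RSEM (version not stated) and deposited log2(TPM + 1) per gene, which is the unit of the table. TPM adds up to 1000000 in every sample and keeps no read depth, so precision is known only from the 3 samples of a group. The methods name RefSeq annotations, whereas the rows carry Ensembl identifiers, and they describe single-end reads of 50 bases and Nugen Ovation V2 cDNA with a Kapa LTP library, whereas the labels name a Kapa mRNA-Seq kit. A value of 0 can be a failed estimate.

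Symbols were taken from GENCODE M21, which named 21902 identifiers. The deposited log2 values were fitted with limma 3.58.1 in R 4.3.3 (lmFit, eBayes with trend), stage only, on genes averaging 1 TPM or more, with Benjamini-Hochberg adjustment over all of them and a threshold of 0.05. EBSeq, which the methods name, was not used here because it needs counts. An exact permutation test, two-sided, was used for ratios. Promoter windows are from RefSeq (GRCm38.p6) and words of 50 bases from GENCODE M21 transcripts. Python 3.11.15 was used with numpy 2.4.6, pandas 2.3.3, scipy 1.17.1 and matplotlib 3.10.9.

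The members and lists were chosen with earlier results of these data known. Genes named besides the members are up to 3 with the smallest adjusted p in each direction of each list, a fixed set of pathway genes, and the 5 nearest by correlation. One gene of that set is not reported here. The alternatives were a pseudocount of 0.1 in place of 1, either no filter or one at 5 TPM, scaling by quantiles, by the median of ratios or with the 20 highest genes removed, a robust or untrended eBayes, a replicate block, a threshold of 0.01, words of 35 bases, and omission of each sample. Leaving out adult replicates 1 and 3 together was chosen after seeing the data.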

Additional observations from a re-analysis of the deposited data

How the results depend on the processing

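Across the alternatives, H2-K1, H2-D1, Tapbp and B2m kept their direction, with log2 fold changes of 3.51 to 4.01, 3.06 to 3.31, 1.92 to 2.20 and 0.91 to 1.18. Where more than 1 adult sample remained, these genes also kept their call at a threshold of 0.05. H2-T23 ranged from 1.70 to 2.71, Tap1 from 0.99 to 1.70 and Tap2 from 0.99 to 1.64. Psmb8 turned to -0.17 without adult replicates 1 and 3, and Nlrc5 (-0.62 to 0.16 with single samples left out) to 0.09, 0.16 and 0.06 without embryonic replicate 2, adult replicate 1 and adult replicate 2. With no filter on low values 4 members were called higher, and the other lists gave 2 lower among the pathway genes and 6 higher and 1 lower among the regulator, interferon and class II genes.

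At an adjusted p under 0.01, 1855 genes were higher and 1863 lower among all tested, 2 pathway genes were lower, and 2 regulator, interferon and class II genes were higher and 0 lower. Without adult replicates 1 and 3, which leaves 1 adult sample, 1614 genes were higher, and 2 regulator, interferon and class II genes were higher and 1 lower. Lower pathway genes numbered 3 on rescaling without the 20 highest genes and 2 without the trend, and lower regulator, interferon and class II genes 1 under either and 5 under median-of-ratios scaling. The cause of these changes was not tested.

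With single samples left out, the called members numbered 5 to 8, all higher. The pathway genes ranged from 2 to 5 lower, and the regulator, interferon and class II genes from 6 to 11 higher and 0 to 4 lower. Samples of the same replicate number did not deviate together (correlations of -0.01, -0.02 and -0.02), and the main fit did not pair them. Such correlations cannot tell whether samples of the same number were prepared together. With the replicate block, 6 members were called higher, Tap2 passing to an adjusted p of 0.0527, 2871 genes were higher and 2559 lower among all tested, 10 and 5 pathway genes, and 11 and 2 of the regulator, interferon and class II genes. The scaling moved the median log2 fold change of all genes from 0.16 to 0.03 under median-of-ratios scaling, 0.09 under quantile normalization and 0.25 on rescaling without the 20 highest genes, and the 7 members kept their call under each of these. The read depth is not carried by TPM, which limits what can be said of Psmb8, Psmb9, Nlrc5, Tap1 and Tap2, all measured at low levels.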
